A study of Mus musculus with 28 samples.

Results

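Among the H3K9me2 domains of EHMT2-dTAG mouse embryonic stem cells (mESCs), 1121 regions on chromosomes 1 to 19 lost domain status in depleted mESCs and kept it in depleted 2-cell-like cells (2CLCs). They are described here. A region entered when its bases lay in domains of mESCs given DMSO, of 2CLCs given DMSO and of 2CLCs given dTAG-13, and outside the domains of mESCs given dTAG-13. Stretches less than 1 kb apart were merged, and runs of 25 kb or more were kept. The 4 lists held 22791 domains on these chromosomes in all. The regions were thus chosen by the domain positions themselves, so whatever those positions fix is given as a description, with no test, and "lost" means inside a DMSO domain and outside the dTAG domain at the same place, not a measured fall of the mark.

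All cells were BL6/129 hybrid mESCs whose Ehmt2 carries a degron, so that the control cells carried the same alleles as the depleted cells. The sorted cells were EHMT2-dTAG-mcherry MERV-GFP cells of 1 clone, kept for 72 h in DMSO, the solvent, or in dTAG-13, the degrader, and parted by GFP into GFP-negative mESCs and GFP-positive 2CLCs. H3K9me2 was immunoprecipitated by ULI-NChIP, a native method for small numbers of cells, in 3 libraries and 3 matching inputs for each of the 4 conditions. The retinoic acid receptor agonist TTNBP was present in at least some of these experiments, in which the labels and the methods differ. Bulk EHMT2-dTAG-mcherry mESCs after 24 h in DMSO gave 2 libraries and 2 inputs, which entered no comparison here. Each sorted condition came as 1 list of domains for the whole condition, so no replicate spread exists, the depth behind a list is unknown, and no p-value is given. The lists hold no expression values, so the labelled cell states were not checked against marker genes.

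EHMT2 (G9a) and its partner EHMT1 (GLP) place mono- and dimethylation on lysine 9 of histone H3. H3K9me2 covers broad, gene-poor stretches of chromatin, among them clusters of genes used only in special tissues, and is associated with repression. 2CLCs are a rare state of mESC cultures in which MERVL elements and genes of the 2-cell embryo are transcribed. In the embryo and in culture, several enzymes besides EHMT2 methylate the same lysine, among them SETDB1 and the SUV39H enzymes.

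To show what kind of sequence lies in the regions, the 250 bases before the start of 5 genes are printed 5′ to 3′ on the strand of the gene, from RefSeq on GRCm38.p6, with every CG dinucleotide in capitals. The genes were picked after their values were seen, to cover different tissues and the range of CG content. The stretches are chr13:83503784-83504033 (plus strand) for Mef2c, a transcription factor of muscle, heart and neurons, chr1:150099781-150100030 (plus) for Ptgs2, the inducible prostaglandin synthase, chr5:87699426-87699675 (minus) for the milk protein gene Csn2, chr7:103853208-103853457 (minus) for the embryonic globin gene Hbb-y, and chr3:92926231-92926480 (minus) for Lce3a, a gene of the skin barrier.
Mef2c: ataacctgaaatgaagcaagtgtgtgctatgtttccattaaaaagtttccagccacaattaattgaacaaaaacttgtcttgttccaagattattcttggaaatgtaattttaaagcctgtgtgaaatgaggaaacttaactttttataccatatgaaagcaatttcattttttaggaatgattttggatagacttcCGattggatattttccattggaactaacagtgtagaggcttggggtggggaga
Ptgs2: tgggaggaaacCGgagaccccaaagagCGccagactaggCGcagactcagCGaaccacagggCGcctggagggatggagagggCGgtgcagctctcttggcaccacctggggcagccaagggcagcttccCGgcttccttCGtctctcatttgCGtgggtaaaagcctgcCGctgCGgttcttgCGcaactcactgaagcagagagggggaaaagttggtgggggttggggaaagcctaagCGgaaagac
Csn2: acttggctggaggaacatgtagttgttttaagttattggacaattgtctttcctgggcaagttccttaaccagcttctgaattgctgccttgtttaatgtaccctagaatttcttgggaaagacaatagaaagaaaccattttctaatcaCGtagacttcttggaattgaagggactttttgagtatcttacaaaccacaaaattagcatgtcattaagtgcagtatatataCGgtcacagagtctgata
Hbb-y: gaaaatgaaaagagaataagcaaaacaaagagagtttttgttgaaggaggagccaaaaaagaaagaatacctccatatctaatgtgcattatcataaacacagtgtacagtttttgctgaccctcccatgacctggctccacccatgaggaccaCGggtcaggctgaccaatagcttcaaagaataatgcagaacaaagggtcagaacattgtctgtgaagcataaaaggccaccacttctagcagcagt
Lce3a: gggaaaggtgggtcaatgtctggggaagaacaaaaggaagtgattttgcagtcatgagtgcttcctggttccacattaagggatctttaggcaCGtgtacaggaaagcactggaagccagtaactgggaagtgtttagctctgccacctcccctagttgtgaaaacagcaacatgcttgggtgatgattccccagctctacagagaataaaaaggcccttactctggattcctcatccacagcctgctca
The Ptgs2 stretch held 13 CG dinucleotides, whereas the Csn2 stretch held 2 and those of Mef2c, Hbb-y and Lce3a held 1 each. Of 15687 protein-coding symbols with a RefSeq promoter, 142 started in a region, and the median count of CG dinucleotides in their 250 bases was 2, beside 11 over all promoters, 1 over the 2196 promoters in domains of all 4 conditions and 14 over the 10682 promoters outside all domains. At least 10 CG dinucleotides were present in 16.2% of the promoters in the regions and in 53.5% of all promoters. The letters TATAAA, searched on both strands, occurred in 16.9% of the promoters in the regions, 12.0% of all promoters, 32.5% of those in domains of all 4 conditions and 7.58% of those outside all domains. By both measures the promoters of the regions stood between those that kept their domains everywhere and those never in a domain.

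The regions also held 9 of the 919 miRNA hairpins that RefSeq places on chromosomes 1 to 19. As background, they held 1.41% of all annotated gene starts and 2.25% of the 5 kb bins of these chromosomes. Mature miRNAs of 2 clusters, picked by hand among those in the regions, are shown. The seed, bases 2 to 8, is in capitals, since these miRNAs share seeds or nearly do. The mir-181 pair lies at chr1:137966468-137966490 and chr1:137966650-137966673 (plus strand), and the mir-216 pair at chr11:28757018-28757039 and chr11:28746204-28746225 (plus strand).
mmu-miR-181a-5p: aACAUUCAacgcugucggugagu
mmu-miR-181b-5p: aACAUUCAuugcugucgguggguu
mmu-miR-216a-5p: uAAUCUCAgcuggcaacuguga
mmu-miR-216b-5p: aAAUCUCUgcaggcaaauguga
The mir-181 genes, which act in lymphocyte development among other settings, share 1 seed. The mir-216 genes, known from the pancreas, have seeds that differ in the last base. The mir-181 genes lay in a region of 40 kb with a mESC dTAG domain on 1 side. Mir216a and Mir216b lay in a region of 145 kb on chromosome 11, also next to a mESC dTAG domain. In the mir-181 region, 15.2% of the stretches of 50 bases occurred more than once on the chromosome, and in the mir-216 region 2.75%.

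The 1121 regions covered 55.4 Mb, or 2.25% of chromosomes 1 to 19. Their widths ran from 25 to 395 kb, with a median of 40 kb and quartiles of 30 and 60 kb. Regions of at least 50 kb numbered 424, and the 68 of at least 100 kb held 16.3% of the total length. Without the minimum width the pattern covered 77.8 Mb in 3680 runs. Just inside the limit, 170 runs of 25 kb had a median GC content of 40.3% and a median of 28.9% soft-masked bases. Just outside it, 258 runs of 20 kb had 40.04% and 26.7%, and 8 runs fell a few bases short of 25 kb.

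Bases lost in depleted mESCs and kept in depleted 2CLCs were a minor part of all bases lost in depleted mESCs. mESC DMSO domains had 293.9 Mb outside mESC dTAG domains. Without a minimum width, 26.5% of this length had the pattern of the regions and 39.6% was also lost in depleted 2CLCs. The regions of 25 kb or more held 18.8%. As background, 8.13% of the 5 kb bins shared by the other 3 lists lay outside mESC dTAG domains, and the mirrored count, bins of the other 3 lists outside 2CLC dTAG domains, was 6.77%. The pattern of the regions was therefore 1.22 times as long as its mirror image, which covered 63.9 Mb. With 1 list for each condition, no error can be put on this ratio. The lists also differed in total length. mESC dTAG domains covered 1099 Mb and 2CLC dTAG domains 1150 Mb, while mESC DMSO domains covered 1290 Mb and 2CLC DMSO domains 1224 Mb. The part of these totals in the ratio was not tested.

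The regions differed in how they lay beside the mESC dTAG domains. Of the 1121, 625 (55.8%, Wilson 95% interval over regions 52.8 to 58.6%) touched a mESC dTAG domain on 1 side. Another 145 (12.9%) were gaps with a mESC dTAG domain on both sides, and 242 (21.6%) touched none although the mESC DMSO domain that held them kept one elsewhere. In the remaining 109 (9.72%) the whole mESC DMSO domain had no mESC dTAG domain at all. Touching 1 domain did not make a region the end of one, since the mESC dTAG domains could resume beyond further lost bases. Within the same mESC DMSO domain, mESC dTAG domains lay on both sides of 485 regions (43.3%), among them 280 of the 625, and on 1 side of 527 (47.0%). Neighbouring regions share domains, so these intervals cover counting over regions alone.

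The same borders were read from outside. The base next to a region's end lay in domains of all 4 conditions at 39.4% of the 2242 ends, and in the DMSO domains of both cell states but in neither dTAG list at 39.8%. In 418 regions (37.3%) 1 end was of the first kind and the other of the second. Along such a locus the kept domain came first, then the stretch kept in depleted 2CLCs alone, then the stretch lost in both. The mirrored regions had this arrangement in 304 of 816 (37.3%). Regions with domains of all 4 conditions on both sides were 12.0% of the members and 20.1% of the mirrored regions. Bases lost in both cell states touched 738 members (65.8%) and 446 mirrored regions (54.7%).

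**Figure D1:**
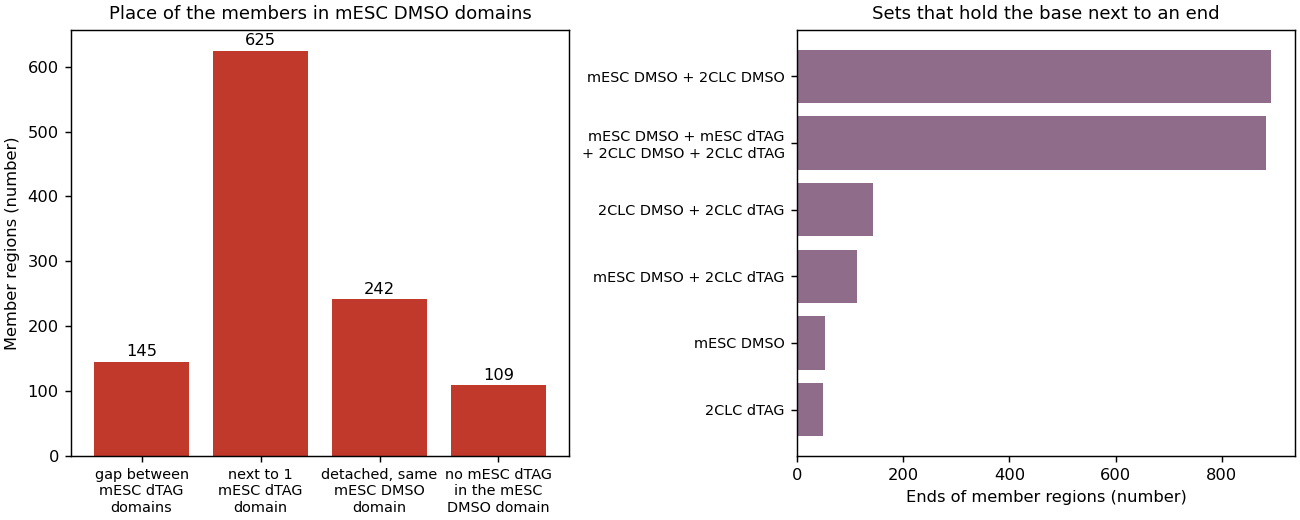
Left, number of member regions (vertical axis) by their place in the mESC DMSO domain that holds them. Right, number of region ends (horizontal axis) by the domain lists that hold the neighbouring base, for the 6 most frequent combinations. Regions next to 1 mESC dTAG domain form the tallest bar, with 625, and the 2 longest bars on the right, 893 and 884 ends, are bases lost in both dTAG lists and bases in all 4 lists.

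The regions lay in wide control domains. Of 3870 mESC DMSO domains, 842 (21.8%) held a region, and the median width of these was 342 kb against 145 kb over all. A domain under 25 kb could not hold a region, and a wider one has more room for it. The difference in width is thus partly set by the rule. The domains holding a region kept a median of 55.6% of their length in mESC dTAG domains, broken into a median of 2 pieces. In depleted 2CLCs, 1049 of 8281 domains held a region, with a median width of 110.0 kb against 55 kb over all, under the same limit. More than 1 region fell into 192 of the mESC DMSO domains. The largest number was 8, in a 4280.0 kb domain of chromosome 18 without a protein-coding gene start, of which 80.3% lay in mESC dTAG domains and 89.6% in 2CLC dTAG domains.

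The 10 widest regions were looked at one by one. The widest, chr2:176767743-177162741 (395 kb), was a gap inside a 2260 kb mESC DMSO domain full of zinc finger and predicted genes. It held the starts of Gm14295, Gm14408, Gm14296, Gm14419 and Gm14401. Of its 50-mers, 64.8% occurred more than once on the chromosome, so reads there are hard to place, and none of its bases lay in the unnamed list, a deposited list of domains whose label gives no cell state or treatment. The region of 170 kb at chr7:39234610-39404609 was similar in this respect, with 91.0% repeated 50-mers. The part of read placement in these differences was not tested. The other 8 had between 1.28 and 4.77% repeated 50-mers.

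Of these 8, 6 overlapped the body of a protein-coding gene and none held a gene start. Foxp2, a forkhead transcription factor of brain and lung development, had 2 of them, of 195 and 160 kb. Others overlapped Pld5 (195 kb, a phospholipase D relative) and Epha6 (190 kb, a receptor for ephrins). The rest overlapped Pclo (180 kb, a scaffold protein of the presynaptic active zone) and Klf6 (160 kb, a zinc finger transcription factor). These widths are those of the regions and not of the overlap, and Klf6 was not among the genes with most bases in the regions. The Pld5 region made up most of a mESC DMSO domain of 280 kb in which depleted mESCs had none. The Epha6 region was a gap in a 945 kb mESC DMSO domain.

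Foxp2 (chr6:14901349-15441977, plus strand) had most bases in the regions of any gene. Its body was 97.2% inside mESC DMSO domains, 21.4% inside mESC dTAG domains, 99.1% inside 2CLC DMSO domains and 92.6% inside 2CLC dTAG domains. Together 3 regions covered 385 kb, or 71.2% of the gene. The gene start itself lay between neighbouring mESC DMSO domains and inside a mESC dTAG domain. mESC dTAG domains covered the first part of the gene and its last few kb, with none between.

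**Figure D2:**
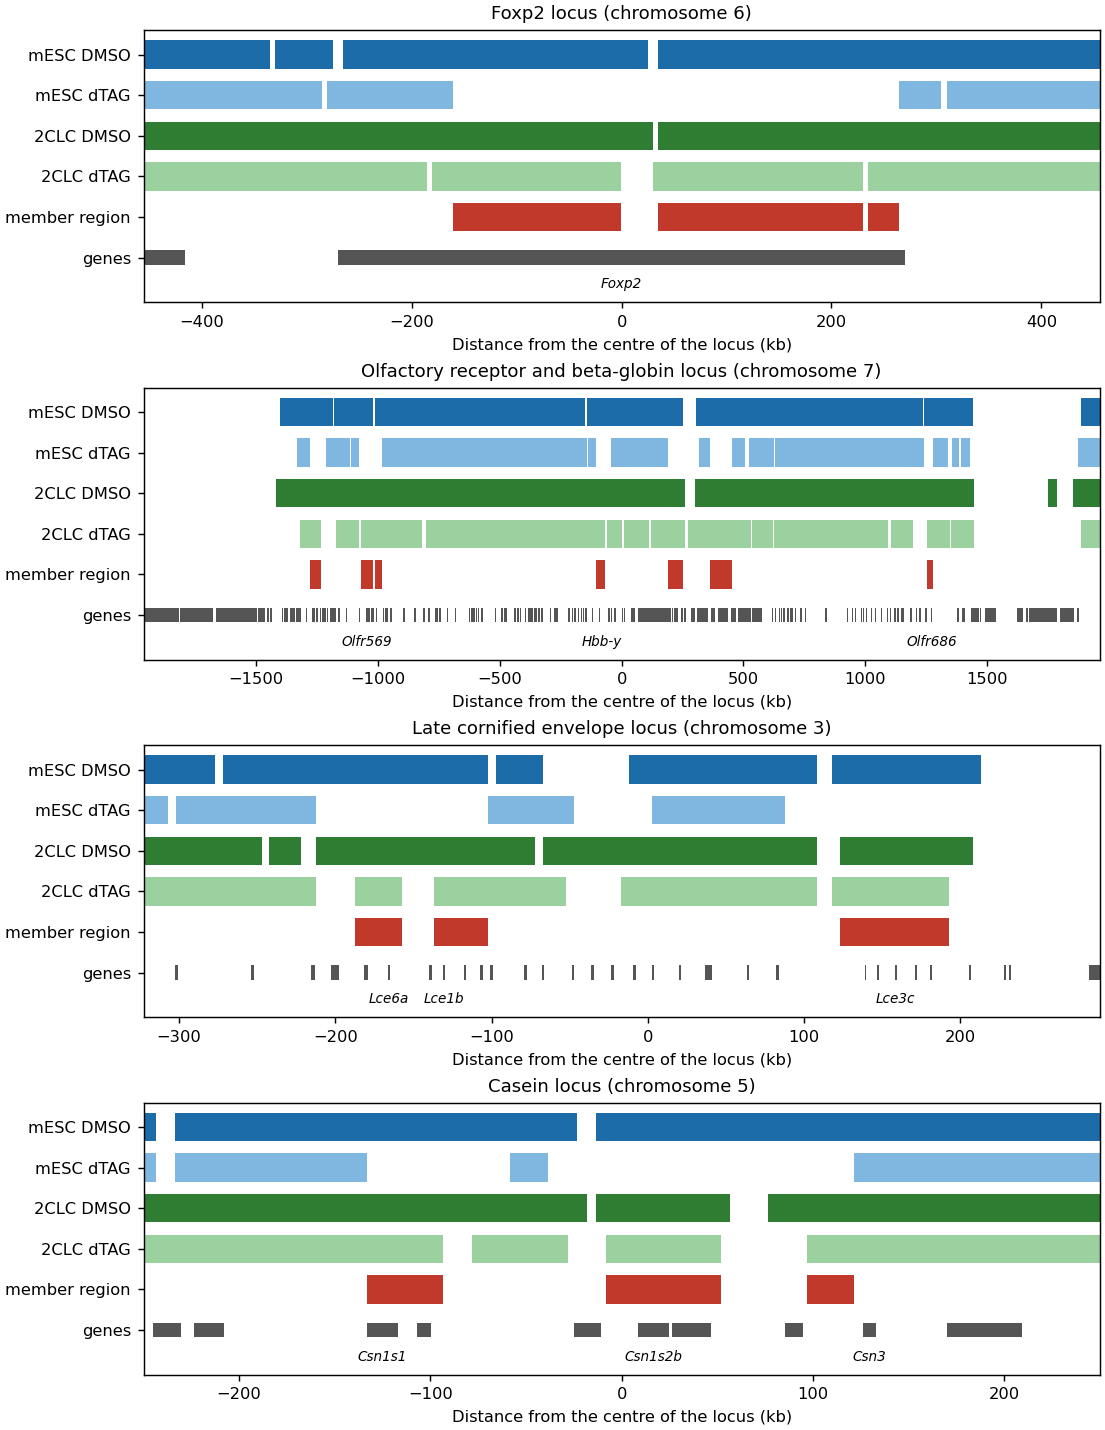
Domains of the 4 sorted lists, member regions and protein-coding genes along 4 loci, against distance in kb from the centre of each locus. Member regions fall where the mESC dTAG row is empty and the other 3 rows are filled, as over 385 kb of Foxp2 and 3 regions each in the late cornified envelope and casein loci.

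The genes with most bases in the regions were long, and several are known from neurons. In all, 497 protein-coding genes had bases in a region, with a median length of 121 kb against 17.6 kb over all protein-coding genes. A long gene meets more regions by its length alone. Of 218 genes of at least 500 kb, 84 had bases in a region. More than 50% of the body lay in regions for 175 genes. After Foxp2, the largest amounts were in Nrxn3 (260 kb in 4 regions), a presynaptic adhesion protein, Lsamp (245 kb in 6 regions), an adhesion protein of the limbic system, and Pld5 (240 kb in 2 regions).

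Coverage of the whole gene body differed among these genes. In Pld5 the mESC dTAG share was 0.108% against 79.98% in 2CLC dTAG domains, and in Pclo it was 29.7% against 96.7%. In Nrxn3 (60.4% and 62.0%), Lsamp (62.2% and 59.2%) and Ptprd (82.0% and 76.7%), a receptor phosphatase of synapses, the sums over the whole body were close in the depleted cell states. In Lsamp and Ptprd the 2CLC dTAG share was the lower one, although both genes held regions. In these genes the stretches without a domain after depletion lay partly at different places in each cell state.

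**Figure D3:**
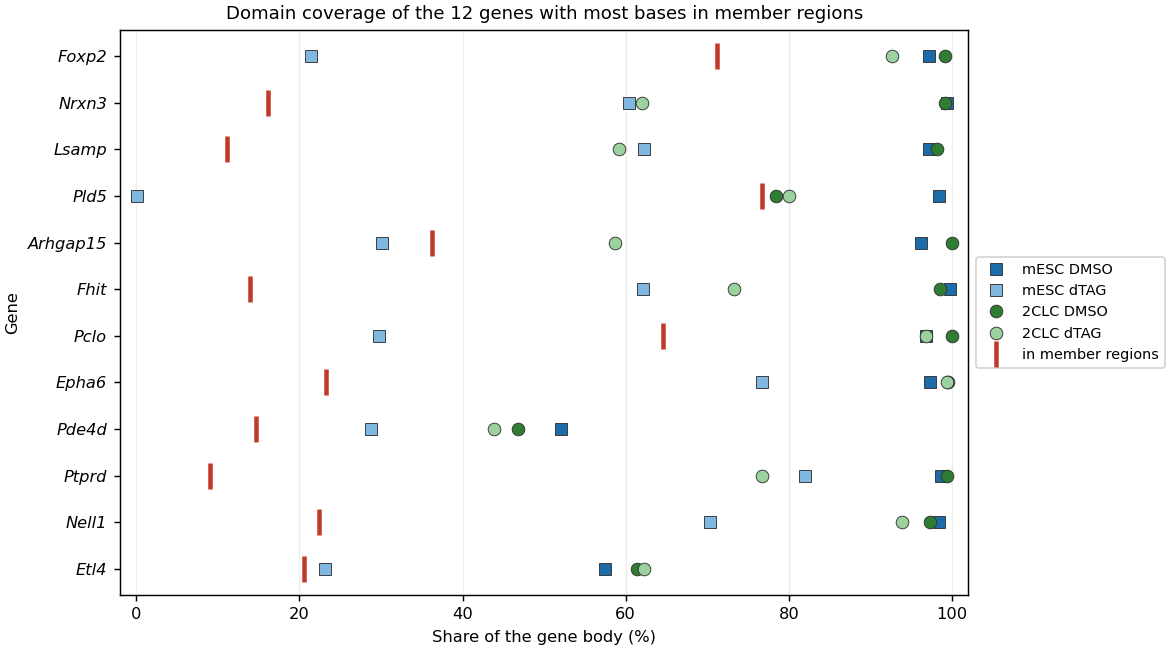
Share of the gene body in percent (horizontal axis) inside the domains of each sorted list (squares, mESCs; circles, 2CLCs; dark, DMSO; light, dTAG) and inside member regions (red bars), for the 12 genes with most bases in member regions. In Foxp2, Pld5 and Pclo the light square stands far left of the light circle, and in Nrxn3, Lsamp and Ptprd the light symbols stand close together.

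Gene starts were few. Of 20807 protein-coding gene starts, 194 (0.932%) lay in a region, spread over 135 regions, while 986 regions (88.0%) held none. The density was 3.504 starts per Mb, beside 3.41 in regions of all 4 lists, 2.43 in the mirrored regions, 2.35 in regions lost in both cell states and 15.4 outside all domains. As background, 304 of the 3302 gene starts in the other 3 lists (9.21%) lay outside mESC dTAG domains. By RefSeq starts in place of GENCODE starts, 142 genes were inside, of which 135 were inside by both annotations.

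Some clusters of tissue-restricted genes stood out when the table was read, and they are given as chosen after their values were seen. As background, 0.932% of all protein-coding gene starts lay in a region. Of those in the other 3 lists, 9.21% lay outside mESC dTAG domains. Of 21 late cornified envelope genes, which encode proteins of the outermost skin, 9 started in 3 regions of chromosome 3 and 4 in domains of all 4 conditions. Lce3a to Lce3e lay together in a 70 kb region, chr3:92909388-92979387, whose 95 kb mESC DMSO domain had no mESC dTAG domain, while 2CLCs had a domain of 85 kb in DMSO and of 75 kb in dTAG. Lce6a was in a nearby region of 30 kb, and Lce1b, Lce1a2 and Lce1c in another of 35 kb.

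The casein genes, which encode the milk proteins, formed a similar cluster on chromosome 5. Csn1s1 and Csn2 started in a region of 40 kb (chr5:87666177-87706176) and Csn1s2b in a region of 60 kb (chr5:87791177-87851176). The Csn1s1 start lay 0.031 kb from the neighbouring mESC dTAG domain. With bins of 5 kb, its place inside the region is not certain. Csn1s2a, between them, lay in DMSO domains of both cell states and in neither dTAG list. Csn3 lay in domains of all 4 conditions. From Csn1s1 to Csn3, 96.2% of the bases were in mESC DMSO domains and 11.8% in mESC dTAG domains, against 90.6% and 70.0% in 2CLCs.

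On chromosome 7, 7 regions lay along the 2549 kb from Olfr555 to Olfr686 and held 25 of its 139 protein-coding gene starts. Both end genes started in regions, so the regions themselves set the ends of this stretch. Of its bases, 97.1% were in mESC DMSO domains and 80.6% in mESC dTAG domains, against 98.4% and 92.0% in 2CLCs. In the beta-globin cluster, Hbb-y and Hbb-bh1, used in the embryo, and Hbb-bh2 started in a 35 kb region (chr7:103829524-103864523), whereas the adult genes Hbb-bs and Hbb-bt lay in domains of all 4 conditions. A region of 90 kb held Trim12a, Trim34b, Trim12c and Trim30b, from a family of TRIM genes with roles in innate immunity. In that region 20.0% of the 50-mers were repeated, and in the globin region 3.503%.

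The region with most gene starts, chr5:25931260-26046258 (115 kb), held 7, Speer4a and 6 predicted genes next to it. Its repeated 50-mers came to 73.3%, so near-identical copies could share reads there.

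Shares differed between the listed gene groups. The olfactory receptors, odorant receptors kept in large clusters, had 925 starts in the other 3 lists, of which 43 (4.65%, Wilson 95% interval 3.47 to 6.203%) were outside mESC dTAG domains, against 9.21% for all genes. Of these, 32 lay in 15 regions, among them Olfr60, Olfr530 and Olfr531 in 1 region of 85 kb on chromosome 7. Vomeronasal receptors, which detect pheromones, had 4 of 306 (1.31%, interval 0.509 to 3.31%) outside, and Vmn2r2 started in a region. Zinc finger genes, a group listed by symbol, had 1 of 48 (interval 0.369 to 10.9%), Zfp37. The Gm-named genes of the widest region were not in this group, so its share does not cover them. Genes of the 2-cell stage had 1 of 35 (interval 0.506 to 14.5%), Pramef8. Of 24 keratin genes (interval 0 to 13.8%) and 36 lectin-like immune receptors (0 to 9.64%) in the other 3 lists, none was outside. The share of all genes, 9.21%, lay within the intervals of the zinc finger, 2-cell, keratin and lectin-like genes. It lay above those of the olfactory and vomeronasal receptors. Genes of a cluster share a domain and are not independent, so these intervals are narrower than the data allow.

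Groups with larger shares had few genes. Of 26 genes for neuronal adhesion and guidance in the other 3 lists, 5 (19.2%, interval 8.51 to 37.9%) were outside mESC dTAG domains, among them Opcml, Ctnna2 and Slitrk3, whose starts lay in regions. Opcml, an adhesion protein of the IgLON family, started at the end of a 70 kb region. Its body was 90.7% inside mESC DMSO domains, 12.8% inside mESC dTAG domains and 23.0% inside 2CLC dTAG domains. Solute carriers had 6 of 33 (18.2%, interval 8.61 to 34.4%) outside, and ion channels 4 of 9 (interval 18.9 to 73.3%). The share of all genes, 9.21%, lay within the intervals of the neuronal genes and the solute carriers. It lay below that of the ion channels, which rests on 9 genes and was 1 interval among many. Kcnab1, a potassium channel subunit, started in a region of 60 kb, and 35.4% of its body lay in 2 regions.

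Of the signalling ligands, Fgf10, a growth factor for limb and lung buds, started in a region of 120 kb by GENCODE. Its RefSeq start lies 44.9 kb away and 1.91 kb outside the region, so whether the Fgf10 promoter is a member depends on the annotation. The same holds for Rarb, a retinoic acid receptor, whose RefSeq start was 9.35 kb from the nearest region. Rarb was named after its values were seen. Mef2c and Opcml started in a region by both annotations.

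Single genes of immune and signalling roles were also among the starts, and the following were named after their values were seen. Crp, the acute-phase C-reactive protein, had 92.6% of its GENCODE body, which spans 135 kb, in 3 regions, with 100% in mESC DMSO domains, 0% in mESC dTAG domains and 96.3% in the domains of 2CLCs under either treatment. In the region that held the Crp start, 23.4% of the 50-mers were repeated, and the part of read placement was not tested. Cpa3, a carboxypeptidase of mast cells, and Cd69, an early activation marker of lymphocytes, lay wholly inside regions of 50 and 60 kb. Ptgs2 started in a 45 kb gap of a 560.0 kb mESC DMSO domain, and 39.3% of its body remained in mESC dTAG domains against 100% in 2CLC dTAG domains. For Il1b, an inflammatory cytokine, whose start lay in a region of 25 kb, the mESC dTAG share was 49.3% and the 2CLC dTAG share 100%. By the listed positions, both genes had their start outside and a later part of the body inside a mESC dTAG domain. The starts of Ptgs2 and Il1b lay 4.978 and 3.333 kb from it, within 1 bin of 5 kb. The genes are 8.197 and 6.57 kb long, so a border within them is finer than the bins can place.

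None of 12 genes that the study followed as markers or regulators started in a region, beside 0.932% of all protein-coding gene starts. At so low a share, an absence among 12 genes does not set them apart. Zscan4c, Zscan4d and Gm21761 lay in domains of all 4 conditions, the nearest region being 6581, 6742 and 1171 kb away. Dppa2 started in a mESC dTAG domain alone, and Dppa4 in all lists but mESC DMSO. Ehmt1, Ehmt2, Zfp462, Trim28, Wiz, Pou5f1 and Klf4 started outside all domains, and the region nearest to any of them was 352 kb from Klf4. Genes that started outside mESC DMSO domains, as these, Dppa2 and Dppa4 did, could not start in a region.

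In repeat content the medians of the regions lay nearer to those of other lost regions, and of sequence outside all domains, than to those of kept ones. Their median GC content was 40.1% (order-statistic 95% interval over regions 39.98 to 40.25%), beside 39.5% in mirrored regions, 40.7% in those lost in both cell states, 39.5% in those of all 4 lists and 44.1% outside all domains. Soft-masked bases, which mark interspersed and simple repeats, had a median of 28.6% in the regions and 27.9% in the mirrored ones, 24.5% where the domain was lost in both cell states, 24.7% outside all domains and 41.9% in regions of all 4 lists. The share of repeated 50-mers was 2.76% in the regions, 2.502% in the mirrored ones, 1.92% where the domain was lost in both cell states, 1.82% outside all domains and 10.5% in all 4 lists. The distributions overlapped widely. The 10th and 90th percentiles of soft-masked bases were 19.8 and 42.8% in the regions and 29.3 and 55.2% in all 4 lists.

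**Figure D4:**
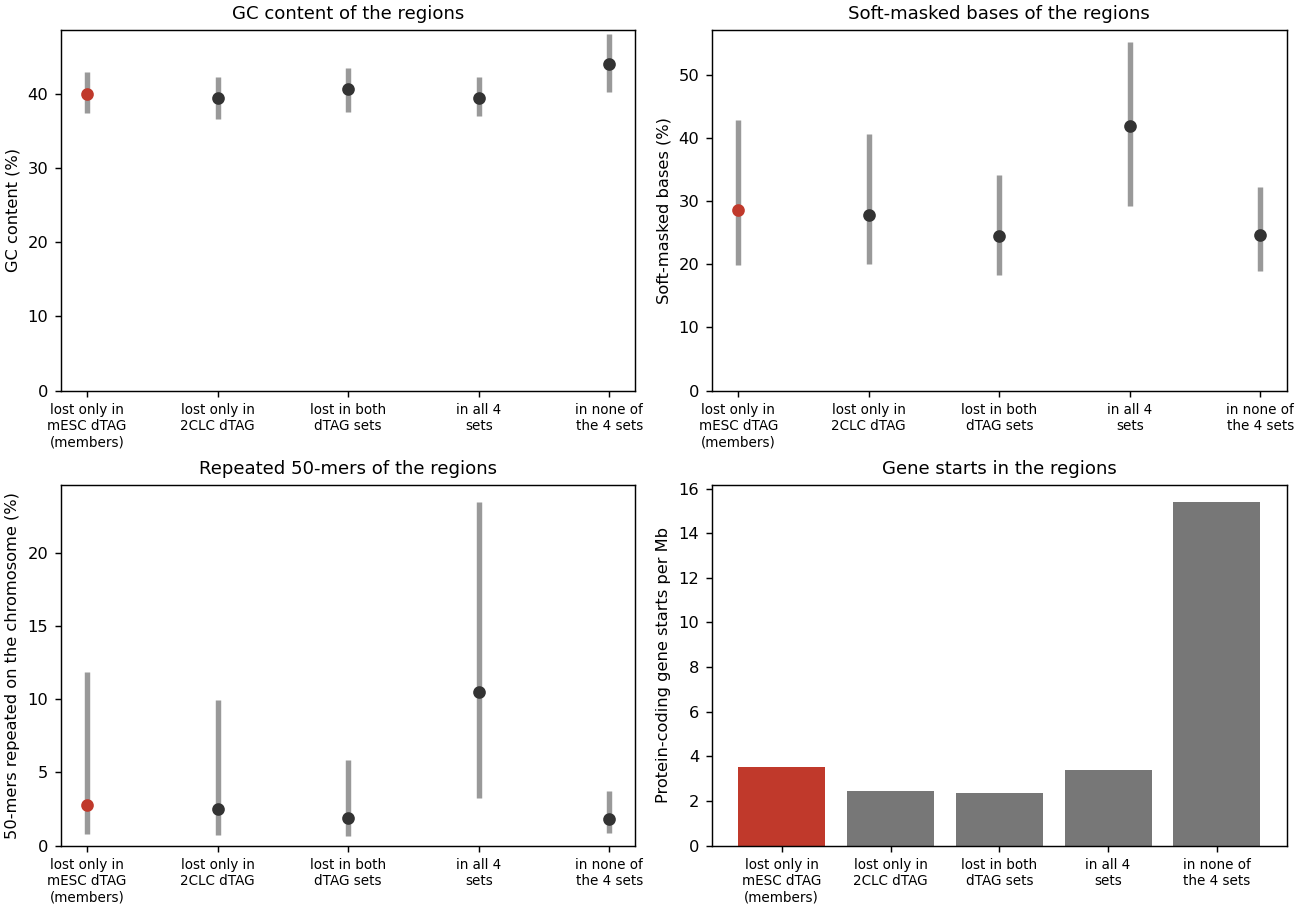
Base composition and gene starts by class of region (horizontal axis). Points are medians over regions and grey bars the 10th to 90th percentile for GC content, soft-masked bases and repeated 50-mers, all in percent; the bars at lower right are protein-coding gene starts per Mb. Members (red) lie nearer to the other lost classes than to the kept one in repeat content, with 28.6% soft-masked bases against 41.9% in regions of all 4 lists.

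Within the regions, soft-masked bases had a median of 27.8% next to 1 mESC dTAG domain, 29.02% in gaps, 29.4% in detached regions and 32.7% where the whole domain was lost. GC content ran from 39.1% in gaps to 41.2% in whole domains. The medians differed little with width, with 28.5, 28.8 and 28.0% soft-masked bases in regions under 50 kb, of 50 to under 100 kb and wider. Most of the sequence was between genes. Exons made up 1.68% of the bases, introns 32.6% and intergenic sequence 65.8%. No protein-coding gene body touched 626 regions, and 277 lay wholly inside one. The nearest protein-coding gene start was a median of 110 kb away, beside 152 kb in mirrored regions, 101 kb where the domain was lost in both cell states and 94.1 kb in all 4 lists.

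The unnamed list was not used to choose the regions. It covered 95.4% of their bases, beside 63.3% of the bins of chromosomes 1 to 19, 94.1% of the mirrored regions, 96.9% of those lost in both cell states, 94.1% of those in all 4 lists and 25.2% of those in no list. Of the 1121 regions, 994 lay wholly inside it and 25 wholly outside, among these the widest region and the globin region. In the Csn1s1 and Csn2 region, 14.7% of the bases were inside. Because this list has no cell state or treatment, it says nothing on which condition it stands for.

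The regions were spread over all 19 chromosomes. Their density ran from 0.253 per Mb on chromosome 17 to 0.698 on chromosome 13, with a median of 0.454. The share of bases common to the other 3 lists that lay outside mESC dTAG domains ran from 4.95% on chromosome 8 to 13.2% on chromosome 19. On 14 of 19 chromosomes this share was larger than the mirrored one, with the mESC dTAG list shorter in total than the 2CLC dTAG list. Chromosome 13 had 12.2% against 6.08% and chromosome 2 had 12.3% against 7.36%, while chromosome 8 had 4.95% against 9.81%. Of the 1102 pairs of neighbouring regions, 202 (18.3%) were no more than 100 kb apart, and the median distance was 725 kb.

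**Figure D5:**
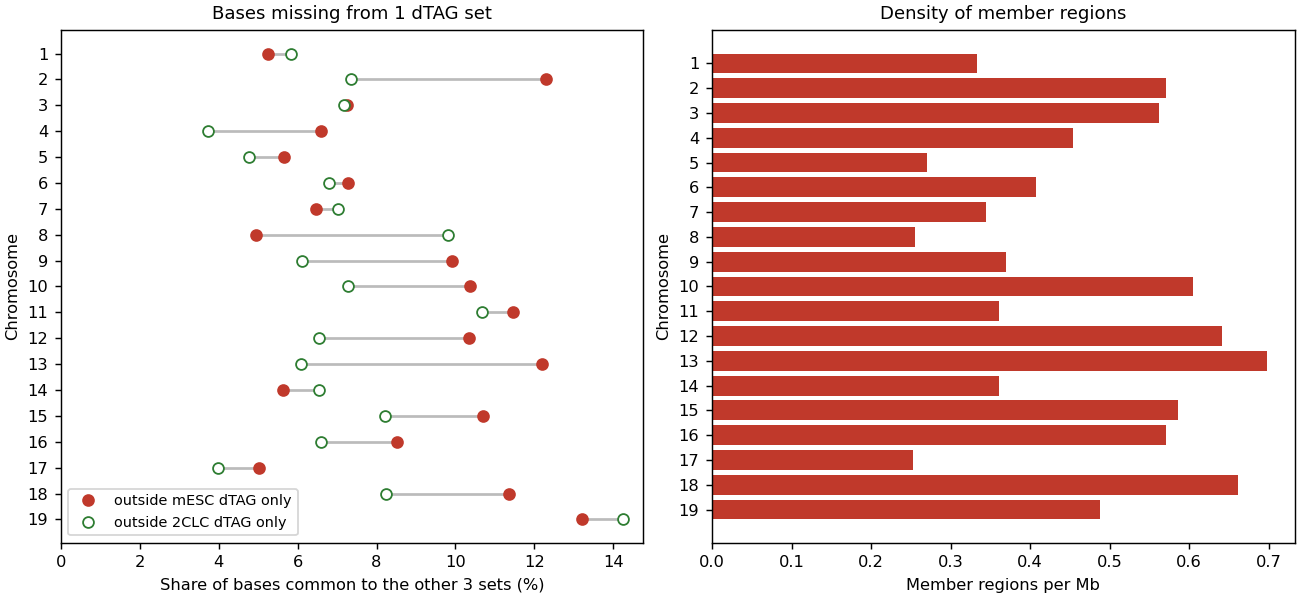
Left, share in percent of bases common to the other 3 lists that lie outside mESC dTAG domains only (filled) or outside 2CLC dTAG domains only (open), by chromosome. Right, member regions per Mb by chromosome. The filled point is to the right on 14 of 19 chromosomes, and chromosome 8 has the open point furthest ahead, 9.81% against 4.95%.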

How the data were processed

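H3K9me2 was measured by the authors with ULI-NChIP in sorted EHMT2-dTAG cells, and each deposited list gives the position of its domains beside a score, which was 0 in every row and carried no information. Per the study's methods, reads were aligned with STAR 2.7.10 and mean coverage was taken in sliding windows with a step of 5 kb. It was expressed per bin as log2 of immunoprecipitation over input. Domains were extended from bins of high ratio until a bin of low ratio, with both limits set as percentiles of the ratio. A kept domain is therefore no measure of how much mark remained. The paper reports that depletion lowered global H3K9me2 in both cell states. SAMtools 1.14, Picard 2.26.0, bedtools 2.30.0, deepTools 3.5.1 and R 4.1.2 are named in the submitters' processing notes. Whether replicates were pooled and whether limits were set list by list is not given in the sources used here. Positions are on mm10 (GRCm38).

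From the 5 deposited lists, 4 were mapped to the sorted conditions, and the unnamed list was assigned to no group. Regions were built with Python 3.11.15 and NumPy 2.4.6, and the rule was tested on simulated domain lists. Mirrored regions, regions lost in both dTAG lists, regions in all 4 lists and regions in none were built with the same merging and width. Gene starts and bodies came from GENCODE M21, and base composition, soft-masking and repeated 50-mers (same chromosome and strand) from GRCm38.p6. Intervals for shares are Wilson 95% intervals from SciPy 1.17.1. Named genes were those starting in the 10 widest regions, in the 5 regions with most gene starts, or in listed gene groups by region width, plus 12 genes of the study, and some genes that this rule names are not reported here. The members and gene lists were chosen with earlier results of these data known. Minimum width, merging, domain filters, widened mESC dTAG domains and chromosomes were varied.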

Additional observations from a re-analysis of the deposited data

Results flagged for a closer look

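Chromosome X was outside the rule, since the authors left it out of the scaling of coverage. With the same pattern and width, it held 85 runs, covering 3.355 Mb, the widest of 105 kb, while chromosome Y held 0 runs. The 85 runs are listed because chromosome X entered no comparison of the report, and was used in 1 alternative setting alone. They were picked by the same pattern of domains, so their number is a description and shows nothing beyond it. No control list exists for them.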

How the results depend on the processing

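No paired analysis was possible because each condition is 1 list of domains that carries no replicate. The number of regions, 1121, was 424 with a minimum run of 50 kb and 2208 with one of 10 kb, and it stayed within 1.5 times under the other 5 settings (978 to 1206). The share of bases of the other 3 lists outside mESC dTAG domains, 8.13%, was 8.33% without domains under 25 kb, 6.23% with mESC dTAG domains widened by 1 bin and 7.82% with chromosome X. The share of region bases in the unnamed list, 95.4%, was 93.5% with chromosome X. Leaving out 1 chromosome at a time gave 1017 to 1097 regions, 7.84 to 8.42% and 95.1 to 95.9%. Regions next to 1 mESC dTAG domain stayed the most frequent, at 50.9 to 56.8% under the 7 settings, and gaps ranged from 12.2 to 21.1%. The median of soft-masked bases was between 27.0 and 29.7%. With a minimum run of 50 kb the regions covered 31.9 Mb, against 55.4 Mb, and held 96 protein-coding gene starts, against 194, while 724 genes of any type started in the regions of 25 kb or more. The comparison with RefSeq starts was added after the data were seen. Depth, signal levels and replicate spread of the lists are unknown, so these ranges cover the choices made here and not experimental error.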

Other observations

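A few gene types outside the protein-coding set were read after the values were seen. The regions held the starts of 182 of 8924 processed pseudogenes (2.04%), 114 of 5209 lincRNA genes (2.19%) and 26 of 2054 annotated miRNA genes (1.27%), beside 1.41% of all 51229 annotated genes. Of 70 T cell receptor joining segments, 13 (18.6%) started in a region, as did 2 of 4 diversity segments and 2 of 8 constant segments, but 1 of 144 variable segments. These segments and a joining pseudogene, 19 in all, lay in a single region of 55 kb, chr6:41516353-41571352, which spans the diversity, joining and constant segments of the T cell receptor beta locus. Segments that share a domain are not independent.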
